A study of Mus musculus with 16 samples.

Results

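The mitosis genes described here are 38 genes whose products condense and separate chromosomes, build the spindle, run the spindle checkpoint or divide the cell. They were chosen by name, with no threshold on their values on these arrays. Each was read through probe sets for which the platform annotation gives that gene as the only symbol, and where several existed the 1 with the highest mean log2 signal over the 16 arrays was used. By this rule 37 of the 38 genes had a probe set, of 18193 genes that had 1 in all, and Ccnb1 was not analysed here. All 37 also passed the filter on low signals in each of the 3 comparisons.

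The samples were ureteric bud or metanephric mesenchyme of E11.5 mouse embryos. The ureteric bud is the epithelial outgrowth that branches into collecting ducts, and the metanephric mesenchyme around it gives rise to nephrons and stroma. Wild-type bud (4 arrays, each of 3 to 9 pooled buds) and wild-type mesenchyme (3 arrays, each of 1 mesenchyme) were separated by hand after collagenase B at 0.5 mg/ml and 37 °C. Wild-type mesenchyme was also laser-captured from 7 µm sections of kidney rudiments (4 arrays, each pooling 3 to 4 mesenchymes). Hoxa11/Hoxd11 double null mesenchyme was laser-captured from 7 µm sections of urogenital ridges (5 arrays). Both genes encode Hox factors of the same paralogous group, which the kidney needs to grow. Neither the number of embryos in a null capture nor strain, litter or scan date is stated in what was used here. Source piece, pooling and genotype therefore cannot be told apart in the null comparison. The series text calls the replicates separate embryos, and the p-values measure the spread between these arrays.

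Entry into mitosis is driven by Cdk1 with cyclins A and B, and is carried on by the Aurora and Polo-like kinases. Condensin and topoisomerase II shape the chromosomes, kinetochores tie them to spindle microtubules, the checkpoint holds the anaphase-promoting complex until all are attached, and midzone proteins then set up cytokinesis. Most of these genes are transcribed late in the cell cycle, so that their transcripts mark dividing cells, and at this stage both the bud and the mesenchyme proliferate. In RNA from whole tissue pieces, fewer dividing cells and less transcript per dividing cell cannot be told apart.

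Late cell cycle transcription is known to act through 2 promoter elements: the cell cycle genes homology region, read by the MuvB complex, and the CCAAT box, read by NF-Y. Promoter windows from 250 bases before to 50 bases after annotated starts (RefSeq, GRCm38.p6) were searched on both strands for TTTGAA and for CCAAT, whose reverse complements are TTCAAA and ATTGG. The motifs can share at most 1 base where they adjoin. Of the 37 members 31 had an entry, with 33 windows. Aurkb, Ccna2, Incenp, Kif20a, Smc4 and Tpx2 are named only. TTTGAA was found in 26 of 33 member windows (78.8%), and in 17.9% of all 32851 windows of the same length. CCAAT was found in 25 of 33 (75.8%) against 37.4% of all windows, and both motifs in 23 of 33 (69.7%) against 6.95%. The matches to TTTGAA also lay near the start: 23 of 33 member windows (69.7%) had 1 within 50 bases of it, against 4.94% of all windows, a span chosen after the positions were seen. The 5 stretches printed here belong to members called in a comparison below, and all 5 hold both motifs, which not every called member does. Each runs over the 200 bases before the start, 5′ to 3′ on the gene's strand, with matches to either motif in capitals.
Top2a (chr11:99024190-99024389, minus strand): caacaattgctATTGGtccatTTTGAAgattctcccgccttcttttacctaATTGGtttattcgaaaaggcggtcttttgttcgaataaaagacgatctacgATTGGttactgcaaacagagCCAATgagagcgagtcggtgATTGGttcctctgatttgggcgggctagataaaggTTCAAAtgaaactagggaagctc
Prc1 (chr7:80294276-80294475, plus strand): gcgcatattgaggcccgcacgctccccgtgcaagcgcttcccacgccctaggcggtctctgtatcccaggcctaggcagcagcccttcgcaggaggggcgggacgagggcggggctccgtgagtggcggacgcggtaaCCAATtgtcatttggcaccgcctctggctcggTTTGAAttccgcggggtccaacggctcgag
Ncapg (chr5:45669725-45669924, plus strand): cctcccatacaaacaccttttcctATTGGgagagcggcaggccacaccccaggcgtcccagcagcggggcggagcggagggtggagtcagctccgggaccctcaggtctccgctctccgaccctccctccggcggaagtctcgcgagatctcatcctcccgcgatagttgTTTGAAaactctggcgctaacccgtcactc
Kif11 (chr19:37376182-37376381, plus strand): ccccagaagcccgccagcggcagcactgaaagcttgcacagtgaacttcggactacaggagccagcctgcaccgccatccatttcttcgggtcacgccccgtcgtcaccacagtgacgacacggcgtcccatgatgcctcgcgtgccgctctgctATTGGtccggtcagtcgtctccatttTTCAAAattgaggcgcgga
Mki67 (chr7:135716380-135716579, minus strand): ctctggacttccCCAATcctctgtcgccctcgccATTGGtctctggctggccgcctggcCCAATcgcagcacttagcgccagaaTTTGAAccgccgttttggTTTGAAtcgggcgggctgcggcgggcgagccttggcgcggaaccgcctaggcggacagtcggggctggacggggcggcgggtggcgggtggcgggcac

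The printed Top2a stretch holds 5 CCAAT matches and 2 TTTGAA matches, the nearer of which starts at -23 from the annotated start. In Prc1, Kif11 and Ncapg a single TTTGAA match lies close to the start with a CCAAT match upstream of it, and in Mki67 2 TTTGAA matches start at -116 and -98, downstream of 3 CCAAT matches. Windows of Birc5, Bub1, Cenpe, Mad2l1, Ncaph, Nuf2 and Nusap1 hold no TTTGAA. Those of Anln, Birc5, Kif2c, Mad2l1, Ncaph, Ndc80, Nuf2 and Nusap1 hold no CCAAT. Birc5, Mad2l1 and Nuf2, each called in a comparison, thus hold neither motif, nor do Ncaph and Nusap1. Other mitosis genes, in 4 further lists, had TTTGAA in 41 of 83 windows (49.4%), and by list in 16 of 20 spindle and cytokinesis (80.0%), 9 of 20 regulator (45.0%), 12 of 32 kinetochore (37.5%) and 4 of 11 cohesin and condensin II windows (36.4%). DNA replication genes, which are transcribed earlier in the cycle, had it in 4 of 37 windows (10.8%) and CCAAT in 22 of 37 (59.5%). Of the other mitosis windows 38.6% had TTTGAA within 50 bases of the start, 63.9% had CCAAT and 36.1% had both motifs. For the spindle and cytokinesis list these shares were 65.0%, 60.0% and 60.0%, so the pattern is not particular to the members. A match describes these letters in this window and is not a measured binding site.

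**Figure D1:**
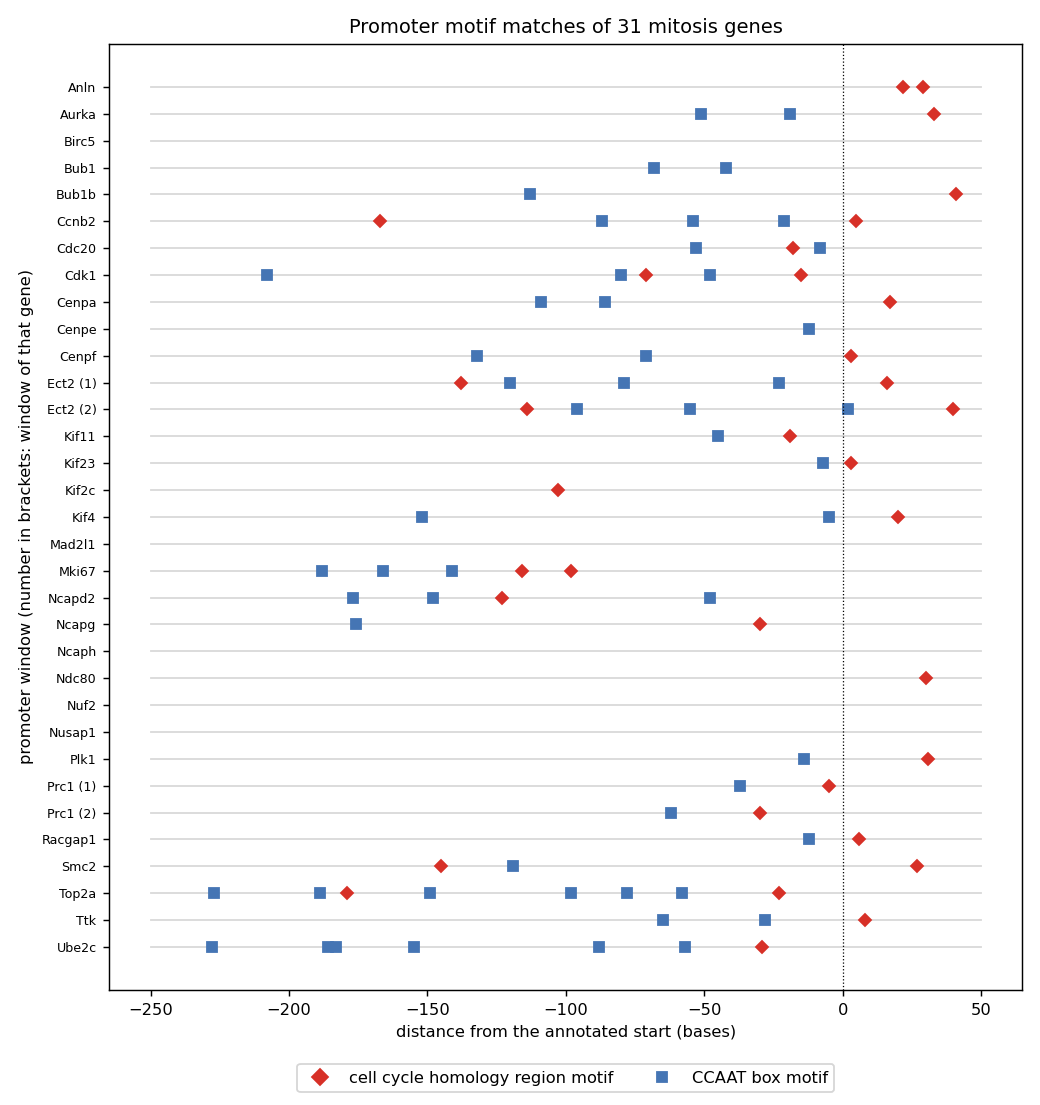
Positions of motif matches in the promoter windows of the 31 mitosis genes with an entry, in bases from the annotated start (dotted line). Red diamonds are matches to the cell cycle genes homology region motif and blue squares matches to the CCAAT motif, on either strand. Of 33 windows, 23 hold a red diamond within 50 bases of the start.

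Values below are MAS5 signals, the linear intensity that Affymetrix software derives for a probe set, and differences are on a log2(signal + 36.3) scale with the standard error from limma. A probe set's signal depends on its probes, so levels are compared between arrays and not between genes. A gene is called where limma's p, adjusted by the Benjamini-Hochberg method over all tested probe sets, is below 0.05. Array medians ran from 112.7 to 209.2 at a common trimmed mean, and no 2 arrays held identical values. The summed signal of 8 ureteric bud markers was 141026 to 180125 in bud, 1826 to 2150 in mesenchyme dissected by hand, 8516 to 49906 in wild-type captures and 8765 to 33679 in null captures. That of 8 nephron progenitor markers was 1349 to 2031 in bud and 65985 to 82584 in hand-dissected mesenchyme. In wild-type captures it was 34469 to 58953, and in null captures 16016 to 83335. Of the 7 tested between bud and hand-dissected mesenchyme, limma called 6 lower in bud and 1 higher. Hoxa11 lay between 525.5 and 839.6 in the wild-type captures and between 91.8 and 196.6 in the null captures (log2 difference -2.23 ± 0.34 SE, limma adjusted p = 0.0114). Hoxd11 lay between 317.8 and 586.8 and between 192.0 and 482.2 (-0.35 ± 0.35 SE, adjusted p = 0.635), and no source used here says whether its probes lie in the disrupted part. The ratio of 3′ to 5′ Gapdh signal, a sign of RNA quality and amplification length, was 6.53 to 12.2 in bud, 22.1 to 69.3 in hand-dissected mesenchyme, 14.3 to 22.9 in wild-type captures and 18.4 to 26.3 in null captures.

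The mean log2 level of the 37 mitosis genes lay between 12.88 and 13.32 on all 16 arrays. In bud it was 13.00, 13.13, 13.23 and 13.32 on arrays 1 to 4, and in hand-dissected mesenchyme 12.99, 13.10 and 12.88 on arrays 5 to 7. Wild-type captures stood at 12.88, 13.02, 12.97 and 13.00, and null captures at 12.94, 13.18, 13.16, 13.30 and 13.24. The group means were thus 13.17 in bud, 13.16 in null captures, 12.99 in hand-dissected mesenchyme and 12.97 in wild-type captures. Bud and hand-dissected mesenchyme overlapped, as did both kinds of wild-type mesenchyme. Null captures 2 to 5 lay above all 4 wild-type captures, and null capture 1 lay among them. Array medians were 112.7 to 128.9 in null captures 2 to 5, 209.2 in null capture 1 and 162.7 to 182.3 in wild-type captures. They were 126.8 to 132.9 in bud and 140.0 to 151.0 in hand-dissected mesenchyme. Wild-type captures thus had higher medians than hand-dissected mesenchyme at nearly the same mean level. The part of the array medians in these levels was not tested. The median member had a within-group SD of 0.25, 0.20, 0.17 and 0.32 in bud, hand-dissected mesenchyme, wild-type captures and null captures. Over all probe sets kept in the null comparison those medians were 0.32, 0.29, 0.32 and 0.55.

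**Figure D2:**
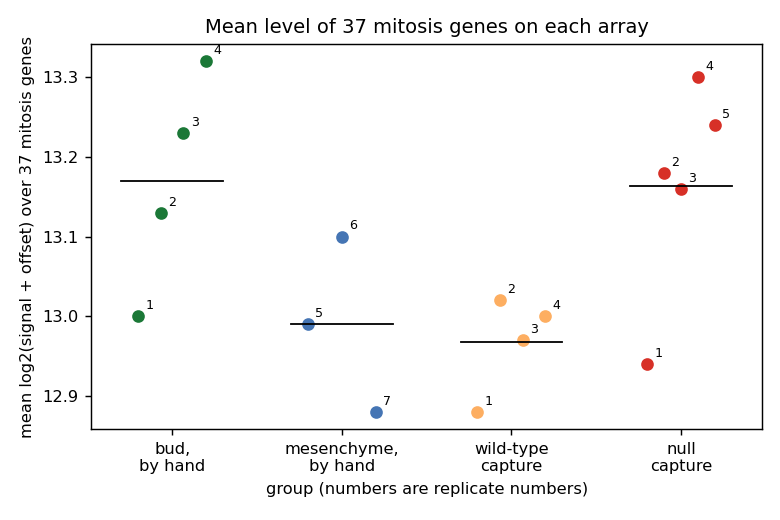
Mean log2(signal + 36.3) over the 37 mitosis genes on each of the 16 arrays, by group, with replicate numbers beside the points and group means as lines. The axis does not start at 0. Null captures 2 to 5 lie between 13.16 and 13.30 and null capture 1 at 12.94, with the wild-type captures between 12.88 and 13.02.

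Bud and mesenchyme, the first comparison of the series, overlapped in the mean level of mitosis transcripts, and the differences that passed the test were all higher in the bud. Of 37 members 4 were higher and 0 lower: the condensin subunits Ncapg and Ncapd2, the checkpoint protein gene Mad2l1 and the midzone organizer Prc1. That is 10.8%, where 23.9% of all 23851 tested probe sets were called and 12.4% of all tested were higher in bud. The calls over all probe sets went both ways, 2952 higher and 2749 lower. The members' median log2 difference was 0.11, with 23 of 37 above 0, and the median of all tested probe sets was 0.02. Arrays of bud and mesenchyme did not overlap for 6 members, 5 higher and 1 lower, or 16.2%, against 32.1% of all tested probe sets. At an unadjusted p below 0.05, 9 members stood against 8614 of 23851 probe sets.

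Among the 7 genes of chromosome structure, Ncapg, a regulatory subunit of condensin I, read 4689, 5355, 4933 and 6129.7 in bud. In hand-dissected mesenchyme it read 3267, 2560.5 and 2559.7. Every bud array lay above every mesenchyme array, and the means of 5277 ± 632 (SD, n = 4) and 2796 ± 408 (SD, n = 3) gave a 1.88-fold difference (log2 0.91 ± 0.20 SE, limma adjusted p = 0.00569). Ncapg passed under all 17 alternatives run on this comparison, with log2 differences of 0.84 to 1.04. A dimmer probe set of the gene differed by 0.35 ± 0.40 SE (adjusted p = 0.575). Ncapd2, another regulatory subunit of the same complex, read 4432, 6298, 5840.4 and 5020.1 in bud and 3393, 3894 and 3128 in mesenchyme. Its groups did not overlap either, though bud array 1 came close to the mesenchyme (0.62 ± 0.20 SE, adjusted p = 0.0415). Its dimmer probe set differed by -0.54 ± 0.29 SE (adjusted p = 0.204). The remaining condensin I regulatory subunit, Ncaph, read 11746 ± 2427 and 11827 ± 587 (-0.03 ± 0.19 SE). The ATPase subunits Smc2 and Smc4, which all condensins share, differed by 0.47 ± 0.17 SE and -0.12 ± 0.15 SE, and neither passed. Mki67, which coats mitotic chromosomes and is the Ki-67 proliferation antigen, differed by 0.11 ± 0.14 SE, and Top2a, the topoisomerase that untangles sister chromatids, by 0.14 ± 0.13 SE.

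Of the 9 kinetochore and checkpoint genes 1 was called. Mad2l1 encodes MAD2, which holds back the anaphase-promoting complex while kinetochores are unattached. It read 16959.9, 15428, 18578 and 23850.3 in bud and 12916, 12278 and 11182 in mesenchyme. All bud arrays were higher (1.52-fold, log2 0.61 ± 0.17 SE, limma adjusted p = 0.0217). The others of this role ran from -0.38 to 0.62. The highest of them was Ndc80, a microtubule-binding subunit of the outer kinetochore, at 1254, 1925, 1625 and 1614 in bud against 1049, 1093 and 924 in mesenchyme. These groups did not overlap, but the difference missed the threshold (0.62 ± 0.22 SE, adjusted p = 0.0607). Its complex partner Nuf2 leaned the other way, with 3545, 4196, 4052 and 4088 in bud and 4759, 5442 and 4454 in mesenchyme. All bud arrays of Nuf2 were below those of mesenchyme, without passing (-0.29 ± 0.18 SE, adjusted p = 0.278). Bub1, a checkpoint kinase, and Cenpf, a kinetochore and matrix protein, also had low values, of -0.38 ± 0.22 SE and -0.15 ± 0.15 SE, and did not pass.

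Of the 10 spindle motor, midzone and cytokinesis genes 1 was called. Prc1 bundles antiparallel microtubules at the midzone of the dividing cell, and read 15158, 14682, 16141 and 16912 in bud. Mesenchyme arrays read 11220.5, 12399 and 9458, all below the bud (1.43-fold, log2 0.52 ± 0.15 SE, limma adjusted p = 0.0274). A second Prc1 probe set differed by 0.46 ± 0.26 SE (adjusted p = 0.216). Kif20a, a kinesin of the midzone, read 4551, 6436, 7299.5 and 7829 in bud and 2213, 5764 and 3469 in mesenchyme. Mesenchyme array 6 lay within the bud range, and the difference of 0.85 ± 0.31 SE missed the threshold (adjusted p = 0.0662). Ect2, the exchange factor that activates RhoA at the cleavage furrow, spread widely in both tissues, at 658, 1598, 3144 and 2420.4 and at 715, 1794 and 1219. Kif11, Kif2c, Kif4 and Nusap1, which act on spindle microtubules, differed by -0.05 to 0.10, and Anln, Kif23 and Racgap1, of the contractile ring and centralspindlin, by -0.07 to 0.16.

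None of the 6 kinase and chromosomal passenger genes and none of the 5 cyclin, Cdk1 and anaphase-promoting complex genes was called with limma, while 1 of each had an unadjusted p below 0.05. The nearest was Plk1, Polo-like kinase 1, at 6125, 7244, 8806 and 7961 in bud and 3509, 6846 and 4017 in mesenchyme. Mesenchyme array 6 again lay within the bud range (0.70 ± 0.24 SE, adjusted p = 0.0589). Aurkb, the kinase of the chromosomal passenger complex, had the lowest log2 difference of any member (-0.43 ± 0.20 SE, adjusted p = 0.157). Its signals were 8349, 8113, 11586 and 12873 in bud and 12466, 16259 and 12122 in mesenchyme, with overlap. Its partners Birc5, which encodes survivin, and Incenp, the scaffold, differed by 0.44 ± 0.22 SE and 0.01 ± 0.13 SE, and the spindle kinase Aurka and its activator Tpx2 by -0.03 and 0.26. A dimmer Incenp probe set was the only other probe set of a member called in this comparison, of 25 tested (1.32 ± 0.34 SE, adjusted p = 0.0146). Cdk1 and Ccnb2, the mitotic kinase and its cyclin, differed by 0.38 ± 0.17 SE and 0.45 ± 0.22 SE. Ccna2, Cdc20 and Ube2c, the S and G2 cyclin and the activator and E2 enzyme of the anaphase-promoting complex, differed by -0.14, -0.10 and 0.34.

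The calls other than Ncapg depended on single arrays. Without bud array 1 the count rose from 4 to 11 (10 higher and Bub1 lower), or 29.7%, where 33.4% of all tested probe sets were called. Without bud array 3, bud array 4 or mesenchyme array 7 Ncapg alone passed, at 17.8%, 19.3% and 16% of all probe sets. Ncapd2 was also lost without bud array 2 or mesenchyme array 5 or 6, Prc1 without mesenchyme array 5 and Mad2l1 without mesenchyme array 6. Centring arrays on their medians, which moved the median of all probe sets from 0.02 to 0.16, gave 8 calls (21.6%, against 26.1% of all), a member median of 0.25 and 32 of 37 members above 0. It also moved the calls over all probe sets from 2952 higher and 2749 lower to 4015 and 2204. The 3′ to 5′ Gapdh ratio did not overlap between these groups, whereas that of Actb did, at 10.9 to 16.3 in bud and 11.1 to 17.9 in mesenchyme. The part of either in the result was not tested. Pooling also differed between bud and mesenchyme, so the tissues and the pooling cannot be told apart.

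Markers of endothelial cells, red cells and macrophages were lower in bud than in mesenchyme. Of the tested markers, 5 of 5 endothelial, 4 of 5 erythroid and 3 of 4 macrophage genes were called lower and none higher. Summed signals over each whole list were 1280.5 to 2899.6 in bud and 7822 to 13097 in mesenchyme for endothelial cells, 8746 to 38454 and 63318 to 71644 for erythroid cells, and 599 to 715 and 3985 to 11033 for macrophages. Of 5 neural crest and neuronal markers 2 were higher and 2 lower. Of 2 gonad and coelomic markers 1, Wnt4, was lower (-2.95, limma adjusted p = 0.00593). The part of these cells in the mitosis gene values was not tested.

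In the null against the wild-type captures, the second comparison, 2 of 37 mitosis genes passed the test: Prc1 and Top2a, both higher in the null. None was called lower. This is 5.41% of the members, where 1.76% of all 23387 tested probe sets were called, 0.59% higher and 1.17% lower. The median member difference was 0.18 with 28 of 37 above 0, and the median of all tested probe sets was -0.15 with 38.5% above 0. The scale moved both: after quantile normalization they were 0.20 and -0.05, after cyclic loess 0.24 and -0.01, and after centring on array medians 0.48 and 0.15. Members above 0 then numbered 26, 28 and 35 of 37. Centring also moved the calls over all probe sets from 138 higher and 273 lower to 136 and 71. At an unadjusted p below 0.05 stood 10 members and 4368 of the 23387 probe sets. Arrays of the 2 groups did not overlap for 4 members, all higher in the null, or 10.8%, against 8.82% of tested probe sets.

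Top2a read 28791, 33725, 32632 and 37985 in the wild-type captures. The null captures read 56004, 51936, 49757, 51944 and 54649, each above every array of the other groups. The difference was 1.59-fold (log2 0.67 ± 0.11 SE, limma adjusted p = 0.0155). It was higher in 5 of 5 null arrays and passed under 13 of 20 alternatives, at adjusted p of 0.00178 to 0.111. It missed without wild-type capture 1, 2 or 3, and after quantile normalization or cyclic loess. The fit without limma's intensity trend and the fit with replicate numbers as a block lost it too. A far dimmer probe set of Top2a differed by 0.11 ± 0.78 SE (adjusted p = 0.955).

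Prc1 read 7877, 9139, 7524 and 9379 in the wild-type captures and 12279.5, 15824, 13379, 22199 and 20622 in the null captures. The groups did not overlap, and null captures 4 and 5 stood highest. The means of 8480.0 ± 917 (SD, n = 4) and 16861 ± 4382 (SD, n = 5) differed 1.94-fold (log2 0.96 ± 0.19 SE, limma adjusted p = 0.0377). This call held under 9 of 20 alternatives, at adjusted p of 0.0034 to 0.133. It was lost when any 1 of the wild-type captures, or null capture 2, 3 or 5, was left out. It was also lost without the filter, after centring on array medians, without the intensity trend and with replicate numbers as a block. A second probe set of Prc1 differed by 0.50 ± 0.23 SE (adjusted p = 0.271). Across all 4 groups Prc1 was lowest in the wild-type captures, with hand-dissected mesenchyme next, at 11026 ± 1479.9, and bud at 15723 ± 998.

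**Figure D3:**
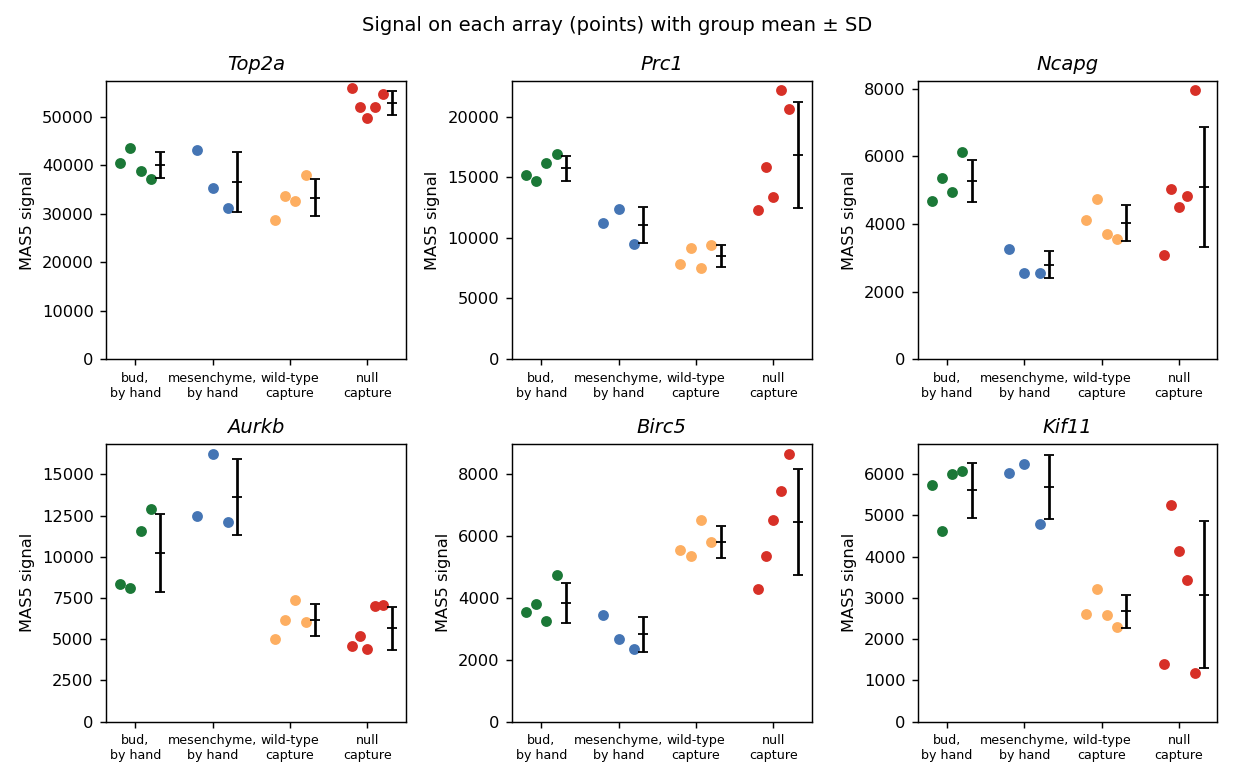
MAS5 signal (linear intensity) of 6 mitosis genes on each array, by group, with mean ± SD beside the points; each panel has its own axis from 0. Top2a and Prc1 do not overlap between null and wild-type captures, Ncapg and Prc1 do not overlap between bud and hand-dissected mesenchyme, and Aurkb, Birc5 and Kif11 do not overlap between hand-dissected and captured wild-type mesenchyme.

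Next to these among the cyclin genes was Ccna2, at 10480.1, 11271, 11729 and 12780.5 in the wild-type and 12274, 20599, 20270.2, 20851 and 22737 in the null captures. Null capture 1 lay within the wild-type range and the other 4 lay clear above it (0.71 ± 0.18 SE, limma adjusted p = 0.0748). A second Ccna2 probe set differed by 0.31 ± 0.20 SE (adjusted p = 0.42). The other genes of this role, Ccnb2, Cdc20, Cdk1 and Ube2c, differed by 0.12 to 0.34 and did not pass. For Ube2c null capture 1 again stood apart, at 6611 against 15538 to 20104 on the other null arrays.

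Of the 9 kinetochore and checkpoint genes none was called with limma, and 3 had an unadjusted p below 0.05. Nuf2 had the highest log2 difference of this role. Its signals were 1601, 2525, 4056 and 2902 in the wild type and 1798, 6197, 5172, 5392 and 3390.5 in the null. Both groups spread widely and overlapped (0.61 ± 0.37 SE, adjusted p = 0.41). Cenpe, a kinesin of the kinetochore, differed by 0.57 ± 0.20 SE, Cenpf by 0.53 ± 0.16 SE and the checkpoint kinase gene Bub1b by 0.37 ± 0.14 SE. Mad2l1, Bub1, Ndc80, Ttk and the centromeric histone gene Cenpa lay between -0.09 and 0.19.

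Of the 6 kinase and passenger genes none was called with limma, and 1 had an unadjusted p below 0.05. Tpx2, which activates Aurora A on the spindle, read 7039, 7199.5, 7064 and 7566 in the wild type and 7653, 9218, 12214, 12137 and 9381 in the null. All null arrays were above the wild-type ones, null capture 1 by little (0.46 ± 0.17 SE, adjusted p = 0.17). Dimmer Tpx2 probe sets differed by -0.13, 0.26 and -0.35, and none was called. Aurkb read 5003, 6181, 7378 and 6070.2 and 4609, 5205, 4427, 7008 and 7099, with wide overlap (-0.13 ± 0.20 SE, and 0.17 after centring on array medians). Aurka, Birc5, Incenp and Plk1 differed by 0.05 to 0.32.

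Among the spindle and cytokinesis genes besides Prc1, Kif20a read 5928, 6902, 4299 and 5603 in the wild type and 7663, 9014, 7089.9, 10558 and 8105 in the null. The groups did not overlap, but the difference missed the threshold (0.58 ± 0.18 SE, adjusted p = 0.125). The lowest log2 difference of any member was that of Ect2, whose signals were 864, 805, 1030.4 and 557 and 395, 494, 534, 338 and 595. Null capture 5 lay above wild-type capture 4 and the rest were apart (-0.74 ± 0.30 SE, adjusted p = 0.217). Racgap1, the centralspindlin subunit that recruits Ect2 to the midzone, read 5089, 5972, 8134 and 7458 in the wild type. Null captures 1 and 4 fell within that range and the other 3 below it, at 6999, 4309, 4586, 7055 and 3566 (-0.36 ± 0.24 SE, adjusted p = 0.46). A second Racgap1 probe set lay on the other side of 0 (0.91 ± 0.24 SE, adjusted p = 0.0782), so the gene has no settled direction here. Kif11 had the largest standard error of any member (-0.02 ± 0.42 SE), at 1387, 5259, 4140.3, 3438 and 1168 in the null against 2601, 3212, 2574 and 2290.4. Null captures 1 and 5 were below all wild-type captures and the other 3 above them. Anln, Kif23, Kif2c, Kif4 and Nusap1 differed by -0.03 to 0.18.

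Of the chromosome genes besides Top2a, Mki67 read 28983, 30615, 30569 and 33999 in the wild type and 40959.7, 46439.7, 44795, 41732 and 32938 in the null. Null capture 5 lay within the wild-type range and the others above it (0.41 ± 0.12 SE, adjusted p = 0.117). Smc2 read 14161, 11870.1, 12884 and 12590.1 and 14504, 11081, 10920.0, 10367 and 9421, with overlap (-0.21 ± 0.15 SE, and 0.10 after centring on array medians). The condensin subunits Ncapd2, Ncapg and Ncaph differed by 0.28, 0.28 and 0.35 and Smc4 by 0.05, and none passed. No other probe set of a member was called, of 27 tested.

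**Figure D4:**
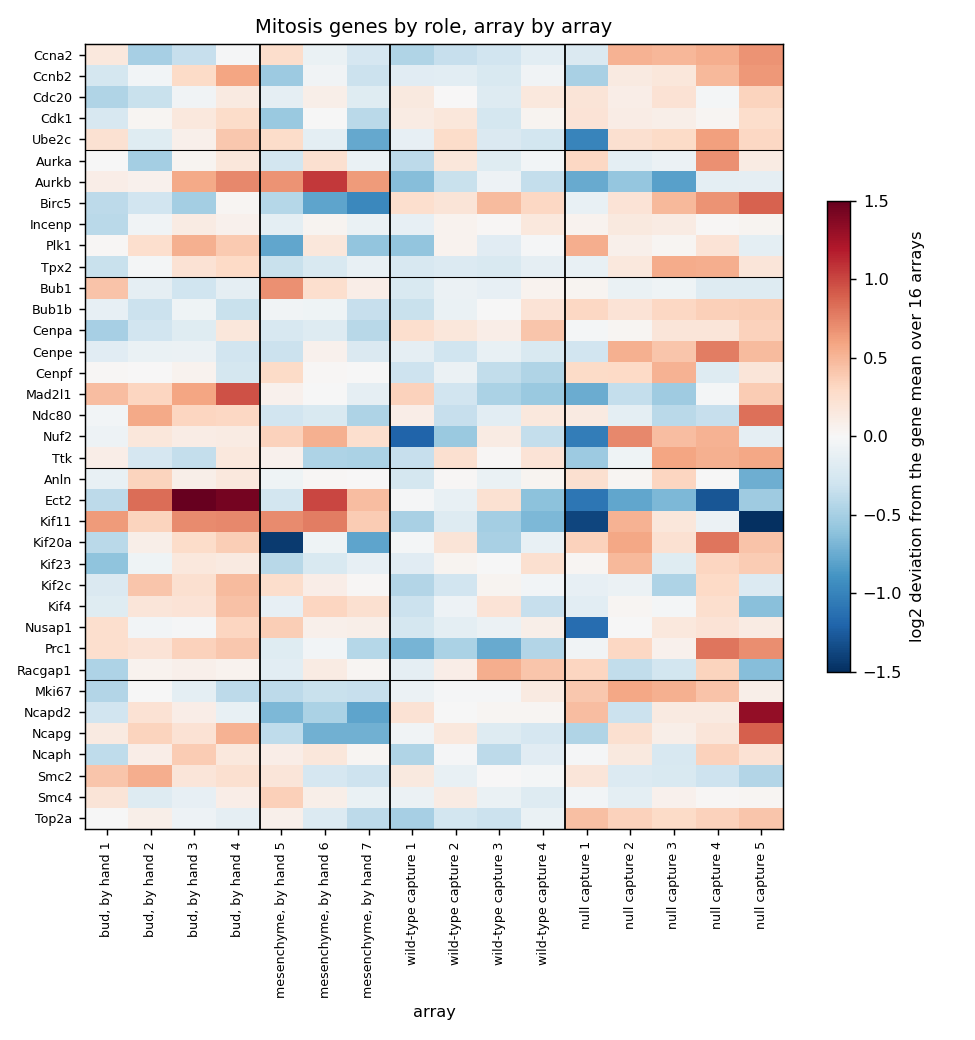
Log2 signal of the 37 mitosis genes (rows, grouped by role with horizontal lines) on the 16 arrays (columns, groups separated by vertical lines), as the deviation from each gene's mean over all arrays. Colours run from -1.5 (blue) to 1.5 (red) and saturate beyond. Null capture 1 is bluer than the other null captures for Ccna2, Ube2c, Nuf2, Cenpe and Nusap1 but not for Top2a or Mki67.

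Null capture 1 stood apart from the other null arrays. Against the rest of its group its median correlation was 0.896, and for the others 0.928 to 0.933, and its median signal was the highest of all arrays, at 209.2. It had the lowest null value for 13 of the 37 members and the highest for 4, where an even share is 7.4. Such counts were larger elsewhere: bud array 1 was lowest in its group for 20, mesenchyme array 7 for 22 and wild-type capture 1 for 18. The even shares there are 9.25, 12.3 and 9.25. Without null capture 1, limma called 5 members, all higher: Top2a, Ccna2, Cenpe, Tpx2 and Prc1. That is 13.5%, where calls over all probe sets rose as well, from 1.76% to 7.97%. Without wild-type capture 1, 2 or 3 the count was 0 (0.319%, 0.253% and 0.245% of all probe sets), and without wild-type capture 4 or null capture 2, 3 or 5 it was 1, Top2a. Leaving out null capture 4 gave 3, with Cenpf added, and 2.28% of all probe sets. The median stayed above 0 in each case, at 0.12 to 0.22.

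Markers of other cell types moved with this contrast. Of 5 tested neural crest and neuronal markers 2 were higher in the null, and the sum of all 6 ran from 2328 to 5297 in the wild type and from 3406 to 32803 in the null. Of 6 macrophage markers 1 was lower, and all 6 differed below 0, 3 of them without overlap, with sums of 10572 to 19762 and 1055 to 13449. All 7 endothelial markers also differed below 0 (median -1.30), of which limma called 0 and 3 had an unadjusted p below 0.05, with sums of 4063 to 22181 and 3786 to 8402. Gonad and coelomic markers summed to 1518 to 4635 and 3315 to 28279.5, but only 1 was tested, which limma did not call (adjusted p = 0.0923). Of 8 ureteric bud markers 0 were called, though 2 had an unadjusted limma p below 0.05. Of 6 erythroid, 7 nephron progenitor and 5 renal stroma markers limma called 0, with 0 at an unadjusted p below 0.05. No marker gene was listed at 0 on every array of a group, the lowest of their highest signals being 16.4. The part of these cells in the mitosis gene values was not tested.

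Laser-captured and hand-dissected wild-type mesenchyme gave the longest list of called mitosis genes. By their labels they differ in isolation and pooling but not in tissue or genotype, though ureteric bud markers were higher in the captures. Of 37 members 4 were higher in the captures (Birc5, Ncapd2, Cenpa and Mki67) and 3 lower (Aurkb, Kif11 and Nuf2). This is 18.9%, against 24.8% of all 23612 tested probe sets, 16.3% higher and 8.51% lower. The median difference was 0.02, with 19 above 0, where the median of all tested probe sets was 0.11. It became -0.17 after centring on array medians, with 12 above 0, which put the median of all at -0.08. Centring also turned the members' calls to 2 higher (Birc5 and Ncapd2) and 11 lower, and those over all probe sets from 3857 higher and 2009 lower to 2435 and 3207. Quantile normalization and cyclic loess left 4 members higher and 3 lower, at 2924 and 2551 and at 3167 and 2485 over all. Arrays did not overlap for 5 members higher and 7 lower, 32.4% in all, against 35.2% of tested probe sets. The wild-type captures are the arrays against which the null captures were compared.

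Aurkb and Birc5, whose products belong to a single complex, went opposite ways. Aurkb, the passenger complex kinase, read 12466, 16259 and 12122 by hand and 5003, 6181, 7378 and 6070.2 in the captures. All captures were lower, 2.2-fold on average (log2 -1.14 ± 0.18 SE, limma adjusted p = 0.00169), and a second probe set was lower too (-1.29 ± 0.19 SE, adjusted p = 0.00135). Birc5, whose product survivin brings that kinase to the centromere, read 3445, 2675 and 2356 by hand and 5537, 5333, 6502 and 5799 in the captures. All captures were higher, 2.06-fold (log2 1.04 ± 0.19 SE, adjusted p = 0.00325). Both calls passed under all 17 alternatives. Incenp, the scaffold that joins them, differed by 0.10 ± 0.10 SE, and its next probe set was higher in the captures (0.89 ± 0.30 SE, adjusted p = 0.0469). Aurka, Plk1 and Tpx2 differed by -0.07 to 0.22.

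Kif11, the kinesin that pushes spindle poles apart, read 6019, 6244 and 4795 by hand and 2601, 3212, 2574 and 2290.4 in the captures. The groups were well apart (2.12-fold lower in the captures, log2 -1.08 ± 0.19 SE, limma adjusted p = 0.00308), and 16 of 17 alternatives kept the call. Its other probe sets, both dimmer, differed by -0.26 ± 0.25 SE and 0.16 ± 0.32 SE and were not called. Nuf2 was also lower, at 4759, 5442 and 4454 and 1601, 2525, 4056 and 2902 (-0.88 ± 0.28 SE, adjusted p = 0.0375), but capture 3 came near the hand-dissected range and 8 of 17 alternatives kept the call. Ect2 differed by -0.53 ± 0.33 SE and Kif20a by 0.66 ± 0.29 SE, both with overlap. Kif2c, Kif4, Nusap1, Anln, Racgap1 and Kif23 lay between -0.31 and 0.28. Prc1 read 9458 to 12399 by hand and 7524 to 9379 in the captures, a gap that did not pass (-0.37 ± 0.16 SE, adjusted p = 0.101).

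Cenpa, the histone that marks centromeres, read 15838, 16390.3 and 14033 by hand and 22385, 21043, 20122 and 24968 in the captures. All captures were higher (0.52 ± 0.12 SE, limma adjusted p = 0.012). Bub1 and Cenpf lay lower in every capture without passing (-0.44 ± 0.17 SE and -0.41 ± 0.14 SE, adjusted p = 0.0803 and 0.0509), and the remaining kinetochore genes lay between -0.22 and 0.32. Of the chromosome genes, Ncapd2 read 3393, 3894 and 3128 by hand and 6338, 5422, 5553 and 5524 in the captures, again without overlap (0.71 ± 0.17 SE, adjusted p = 0.0113). Mki67 rose least, from 23496, 24522 and 24347 to 28983, 30615, 30569 and 33999 (0.36 ± 0.10 SE, adjusted p = 0.0246), and 8 of 17 alternatives kept it. Ncapg read 3267, 2560.5 and 2559.7 by hand and 4108, 4747, 3714 and 3553 in the captures, apart but not past the threshold (0.52 ± 0.19 SE, adjusted p = 0.0675). Ncaph, Smc4, Top2a and Smc2 lay between -0.36 and 0.13. None of the 5 cyclin and anaphase-promoting complex genes was called with limma, and 0 had an unadjusted p below 0.05. Of 29 other probe sets of members 7 were called, those of Top2a, Aurkb, Bub1, Cenpa, Ttk, Incenp and Anln. Only for Aurkb and Cenpa was the brighter probe set called too, in the same direction. For Bub1, Ttk, Incenp and Anln it had the same sign without a call. The dimmer Top2a probe set was higher in the captures (1.56 ± 0.37 SE, limma adjusted p = 0.0114), where the brighter 1 differed by -0.13 ± 0.13 SE. Without mesenchyme array 7 the members called fell from 7 to 3, Aurkb, Birc5 and Kif11, and all probe sets called from 24.8% to 13.5%. Mki67 was lost when any 1 mesenchyme array or capture 2 or 4 was left out, and Nuf2 when any 1 array other than capture 3 was.

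Of the ureteric bud markers, 7 of 8 were higher in the captures than in hand-dissected mesenchyme, as were 4 of 6 erythroid and 2 of 5 tested macrophage markers. Their sums were 8516 to 49906 against 1826 to 2150 for the bud, 86519 to 165279.7 against 63318 to 71644 for erythroid cells and 10572 to 19762 against 3985 to 11033 for macrophages. Mesenchyme markers went both ways. Six2, a factor of nephron progenitors, was lower in the captures (limma, -2.28 ± 0.25 SE, adjusted p = 0.000345), the only call among 6 tested progenitor markers. Of 5 renal stroma markers Meis1 (-0.69) and Meis2 (-0.40) were lower and Tcf21 (0.99) was higher. Of 4 tested neural crest and neuronal markers 1 was higher. Of 6 gonad and coelomic markers only Wnt4 was tested, and it was higher (1.14, limma adjusted p = 0.0392). Wnt4 was also called higher in hand-dissected mesenchyme than in bud. Of 7 endothelial markers limma called 0, with 1 at an unadjusted p below 0.05. The part of these cells in the mitosis gene values was not tested.

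**Figure D5:**
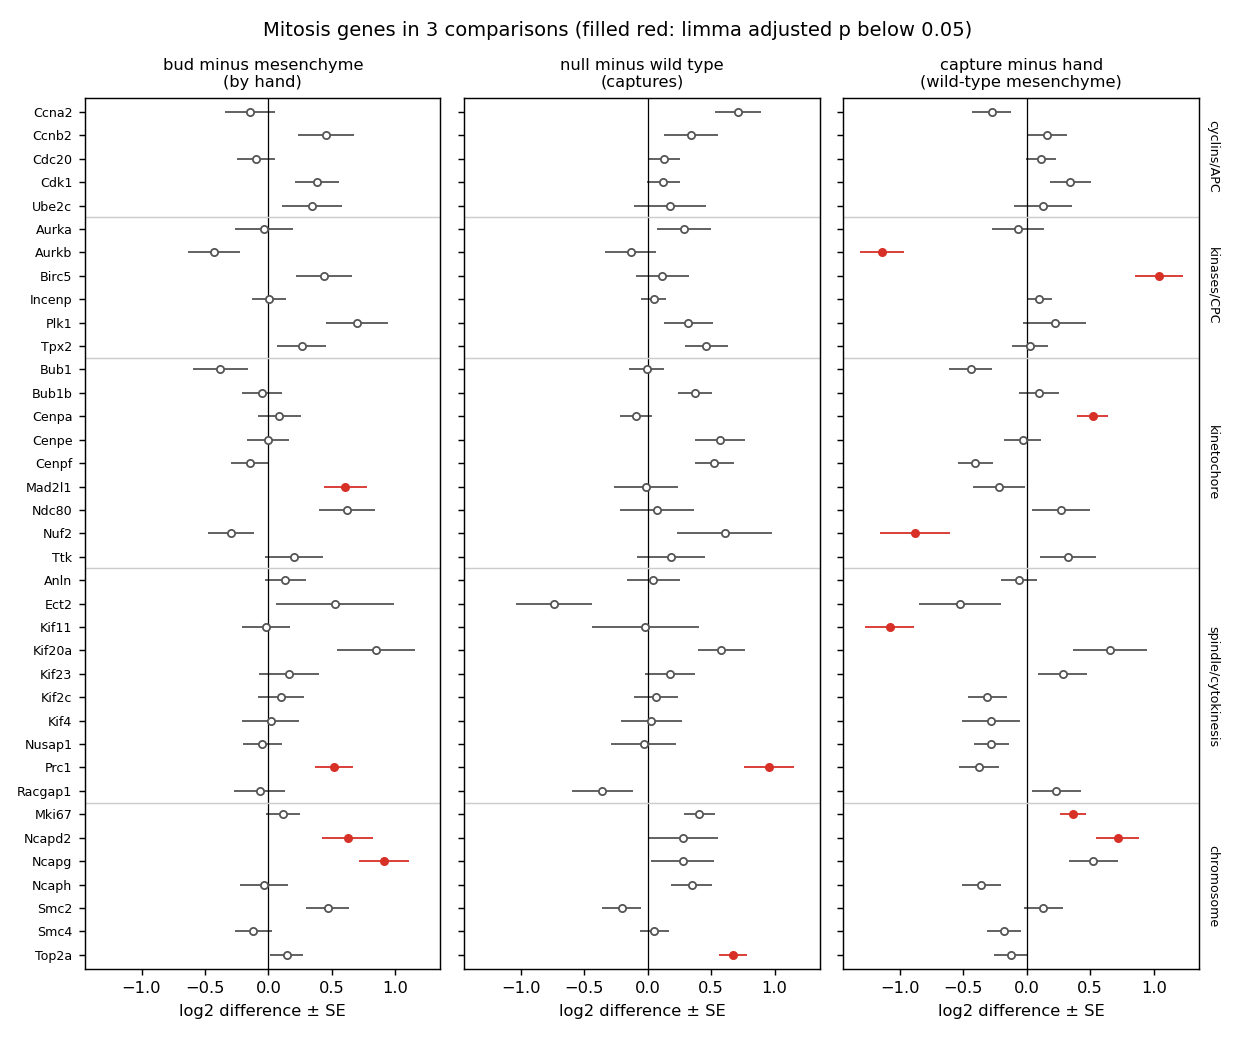
Log2 difference ± SE of each of the 37 mitosis genes in the 3 comparisons, grouped by role; filled red points have a limma adjusted p below 0.05. Red points number 4 in the left panel and 2 in the middle panel, all right of 0, and 7 in the right panel, 4 right and 3 left of 0. The middle and right panels share the wild-type captures, and the left and right panels share the hand-dissected mesenchyme.

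Other mitosis genes, from 4 lists of regulators, kinetochore genes, spindle genes and cohesins chosen by function, give the setting. In the null comparison 4 of 88 tested were called, 2 higher and 2 lower (4.55%, against 1.76% of all tested probe sets), and their median was 0.13. Kif20b, a kinesin of late cytokinesis, averaged 4879 ± 911 in null and 1474 ± 385 in wild-type captures (1.71 ± 0.23 SE, adjusted p = 0.00677). Hmmr, a spindle pole protein, averaged 19077 ± 4162 and 8641 ± 2063 (1.14 ± 0.20 SE, adjusted p = 0.0254). Spc25, the partner of Ndc80 and Nuf2 in the outer kinetochore complex, was lower in the null, with means of 7475 ± 2459.9 and 20535 ± 1548 (-1.51 ± 0.21 SE, adjusted p = 0.00786). Arhgap11a, a regulator of RhoA at the furrow, was lower too (-0.80 ± 0.16 SE, adjusted p = 0.0391). Hmmr and Arhgap11a were also called lower in the wild-type captures than in hand-dissected mesenchyme, whereas Kif20b and Spc25 were not called there. Hmmr has 5 probe sets, Kif20b 4 and Spc25 2, and only the brightest of each was read. Between bud and mesenchyme 13 of 89 were called, 6 higher and 7 lower (14.6%, against 23.9% of all), with a median of 0.04. The largest of these were Cdc25b, a phosphatase that activates Cdk1, at 2.01 ± 0.20 SE, adjusted p = 2.15e-05, and Depdc1b at -1.60 ± 0.39 SE, adjusted p = 0.011. Between captured and hand-dissected mesenchyme 27 of 88 were called, 13 higher and 14 lower (30.7%, against 24.8% of all), with a median of 0.01.

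DNA replication genes, which act earlier in the same cycle, had 3 of 40 members higher and 0 lower in bud (7.5%, against 23.9% of all tested probe sets; median 0.11). Among them 1 of 40 was higher in the null (2.5%, against 1.76% of all; median 0.10), Pola2, a subunit of DNA polymerase alpha (1.11 ± 0.20 SE, adjusted p = 0.0265). In the captures 3 were higher and 5 lower than by hand (20%, against 24.8% of all). The difference between replication and mitosis genes was not tested.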

How the data were processed

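Transcript levels were measured on 16 arrays (Affymetrix MOE430_v2, 45101 probe sets, 1 array per sample) after 2 rounds of RNA amplification, per the labels' protocols. What the authors deposited is the intensity of each probe set on a linear scale, made with MAS5 per the submitters' processing notes. The authors had scaled each array to a mean of 1500 after trimming 2% at each tail, as read from the values. This scaling fixes the total, and amplification from the 3′ end can shift a probe set by its distance from that end. No source used here states the MAS5 version, no detection calls were used, and the number of arrays limits the precision.

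After removal of 64 control probe sets, 34945 probe sets had 1 gene symbol in the platform annotation, 932 had several and 9160 had none. Values were taken as log2(signal + 36.3), the offset being the 25th percentile of all values. A probe set was kept where it exceeded its array's median on a number of arrays no less than the size of the smaller group. Each comparison was fitted on its own arrays by limma 3.58.1 (R 4.3.3), through lmFit and then eBayes with its trend on mean intensity. P-values were adjusted by Benjamini-Hochberg over all kept probe sets, with a threshold of 0.05, and the script was tested on simulated data. Other steps used Python 3.11.15, pandas 2.3.3, numpy 2.4.6, scipy 1.17.1 and matplotlib 3.10.9.

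The members, the lists and the tests were chosen with earlier results of these data known. Single genes are named where they were called in any comparison or were among the 4 highest or 4 lowest members of one, with other genes added after their values were seen. Of the other lists, genes called in the null comparison and those with the largest differences are named. Alternatives changed the offset, the filter, the normalization, the fit or the arrays used.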

Additional observations from a re-analysis of the deposited data

Results flagged for a closer look

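The 37 members and their mean level were tested in the 3 groups of 4 or 5 arrays, 114 tests in all, for a lowest or highest array far from the rest of its group, and 4 such values were found; chance alone gives about 1 in 20, or 5.7. Ccna2 read 12274 on null capture 1, where the other null captures read 20270 to 22737. Nusap1 read 6472 on the same array, against 14182 to 16459 on the other null captures. Ncapd2 read 6338 on wild-type capture 1, against 5422 to 5553 on the other wild-type captures. Racgap1 read 4034 on bud array 1, against 5787 to 5869 on the other bud arrays. No explanation of these values was tested.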

How the results depend on the processing

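Counts are given here as all probe sets called, then members called. Between bud and mesenchyme (5701 and 4), array weights gave 10132 and 13, a single fit over all 16 arrays gave 3580 and 2, median centring gave 8 members with a member median of 0.25 and a difference in mean level of 0.32 (0.11 and 0.18 otherwise), and the fit without the intensity trend gave 1 member. Leaving out 1 array gave 1 to 11 members. In null against wild type (411 and 2), no filter gave 256 and 1, median centring 207 and 1, no trend 215 and 0, array weights 1654 and 7, and the single fit 1793 and 5. Quantile normalization and cyclic loess each gave 1 member, Prc1. Median centring moved the member median to 0.48 and the difference in mean level to 0.50 (0.18 and 0.20 otherwise), and turned the sign of 7 members, Smc2 (0.10) and Aurkb (0.17) among them. Leaving out 1 array gave 60 to 1809 probe sets and 0 to 5 members. Between captured and hand-dissected mesenchyme (5866 and 7), the single fit gave 2811 and 3, median centring 13 members (2 higher, 11 lower) with a median of -0.17 and a level difference of -0.22 (0.02 and -0.02 otherwise), and no trend 4 members. Leaving out 1 array gave 3384 to 5994 probe sets and 3 to 7 members. Omitting an array changes the filter and leaves fewer arrays. The cause of the other shifts was not tested.

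Wild-type and null captures share replicate numbers 1 to 4. With the number as a replicate block, arrays 1 to 4 of each group gave 54 probe sets and 0 members, against 263 and 1 without the block. Deviations of same-numbered arrays correlated at 0.000868, 0.0387, -0.0511 and 0.0651, and no label says that these arrays pair embryos. Whether they share a litter or a scan date is not stated in what was used here.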

Other observations

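Genes that govern entry into the cycle were called in both directions between bud and mesenchyme, at a share near the 23.9% of all tested probe sets. Of 13 G1 cyclin and E2F genes 2 were higher and 1 lower in bud (23.1%): Ccnd1, cyclin D1, stood at 27193 ± 3193 in 4 bud arrays and 8497 ± 1287 in 3 mesenchyme arrays (mean ± SD; limma, 1.68 ± 0.16 SE, adjusted p = 1.1e-05), and Mycn, a growth-promoting transcription factor, was higher as well (0.83 ± 0.17 SE, adjusted p = 0.00327). Ccne2, a cyclin of the G1 to S transition, was lower (-0.76 ± 0.24 SE, adjusted p = 0.0363). Of 7 tested CDK inhibitors and pocket proteins 1 was higher and 1 lower (28.6%). Cdkn1a, which encodes the inhibitor p21, stood at 4704 ± 1392 in bud and 866 ± 175 in mesenchyme (2.36 ± 0.27 SE, adjusted p = 5.74e-05). Cdkn1c, which encodes p57, stood at 10140.0 ± 859 and 28002 ± 5566 (-1.45 ± 0.17 SE, adjusted p = 5.99e-05). In the null comparison 0 of 13 and 0 of 8 genes of these lists were called by limma, with 0 and 3 at an unadjusted p below 0.05.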
